A study of Homo sapiens with 10 samples.

Results

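The guanylate-binding proteins GBP1, GBP2, GBP3, GBP4, GBP5 and GBP6 were followed through 10 RNA sequencing libraries of cell lines from human esophageal squamous cell carcinoma (ESCC). The genes were taken by name, and all 6 were listed in every table, among 36546 genes in the tables of the interferon-beta (IFN-β) experiment and 22609 genes in those of the knockdown experiment. GBP7, which was not among the genes taken, is given only as a neighbour. The IFN-β experiment held 3 libraries of KYSE30, KYSE180 and KYSE450 cells given IFN-β at 1000 IU/ml for 72 h, and 3 libraries of the same lines given saline buffer, called untreated here. The knockdown experiment held 2 libraries of KYSE30 and KYSE180 cells infected with lentivirus against IRF1-AS, a long non-coding transcript on the strand opposite to IRF1, which encodes a transcription factor, and 2 libraries of these lines with a vector control. All cells were at passages 5 to 10. Each line gave 1 library per arm, so the cell lines are the replicates and the spread between cultures of a line is not known.

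Guanylate-binding proteins are large GTPases related to the dynamins, and they are among the proteins that cells make most readily in response to interferons, above all interferon-gamma. GBP1 binds bacterial lipopolysaccharide and starts a coat on bacteria that enter the cytosol, and GBP2, GBP3 and GBP4 join this coat, which serves as a platform for caspase-4. GBP1, GBP2 and GBP5 carry a C-terminal CaaX box to which a prenyl lipid is attached. GBP2 and GBP5 further inhibit the protease furin, and GBP6, the least studied member here, is known from stratified squamous epithelium.

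The 6 genes lie side by side on chromosome 1 over 379796 bases (GRCh38, GENCODE release 29, which numbers bases from 1). GBP3 occupies chr1:89006666-89022894, GBP1 chr1:89052319-89065360, GBP2 chr1:89106132-89150456, GBP4 chr1:89181148-89198932 and GBP5 chr1:89258950-89272804, all on the minus strand, and GBP6 lies at the far end on the plus strand, at chr1:89364058-89386461. GBP2 overlaps GBP7 by 18706 bases on the same strand. The annotated transcripts of GBP2 share 10.2% of their 50-base windows with other genes of the family, mostly with GBP7, those of GBP1 share 9.62%, mostly with the pseudogene GBP1P1, and those of GBP3 share 4.4%, mostly with GBP1. The share is 0.309% for GBP4 and 0% for GBP5 and GBP6. Reads from shared stretches could have been counted for either gene, so the values of GBP1, GBP2 and GBP3 are less certain in this respect than those of the other members.

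The start-site windows of RefSeq (GRCh38.p14), 250 bases before and 50 bases after the start, were found for GBP1, GBP3, GBP4 and GBP6. They are shown so that members that stood higher after IFN-β can be set beside GBP6, which did not. GBP2 and GBP5 had no window in the source used, so they are missing from this comparison. Each window was searched on both strands for the core of the interferon-stimulated response element (ISRE), which IRF1 binds, and for TTCNNNGAA, the gamma-activated site (GAS). Of 34796 RefSeq windows of this length, 3.57% held the ISRE core and 7.67% the GAS letters. The ISRE core was found in the windows of GBP1, GBP3 and GBP4, and a GAS in that of GBP3, which overlaps no other match. In the following lines, read on the gene's own strand, capitals mark the matched letters; the ISRE core appears as its reverse complement.
GBP1 ISRE core, chr1:89065316-89065345, minus strand: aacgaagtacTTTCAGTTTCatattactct
GBP3 ISRE core, chr1:89022845-89022874, minus strand: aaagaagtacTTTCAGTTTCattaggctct
GBP4 ISRE core, chr1:89198927-89198956, minus strand: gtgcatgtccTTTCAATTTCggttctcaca
GBP3 GAS, chr1:89022863-89022891, minus strand: actgagtcacTTCCTTGAAagaagtactt

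Counted from the RefSeq start, whose first base is 1, the ISRE core of GBP1 ran from -127 to -118, which lies inside the gene in GENCODE, where GBP1 starts further upstream. The ISRE core of GBP3 ran from 3 to 12 and its GAS from -15 to -7, and the ISRE core of GBP4 ran from -4 to 6, across the start. The matched letters of GBP1 and GBP3 were the same. The window of GBP6 held neither motif. The 250 bases before the starts of GBP4 and GBP6 are given for comparison, with the part of the GBP4 match that precedes the start in capitals.
GBP4, chr1:89198943-89199192, minus strand: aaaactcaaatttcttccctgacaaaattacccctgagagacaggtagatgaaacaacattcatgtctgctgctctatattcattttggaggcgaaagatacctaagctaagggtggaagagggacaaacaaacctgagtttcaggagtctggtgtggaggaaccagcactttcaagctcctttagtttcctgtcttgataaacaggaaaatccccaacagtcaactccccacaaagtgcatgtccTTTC
GBP6, chr1:89363809-89364058, plus strand: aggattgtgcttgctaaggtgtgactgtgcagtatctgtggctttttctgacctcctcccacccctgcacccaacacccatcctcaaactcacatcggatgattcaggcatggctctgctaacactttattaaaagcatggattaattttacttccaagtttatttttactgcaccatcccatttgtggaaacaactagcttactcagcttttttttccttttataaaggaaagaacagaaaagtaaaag
A match is a description of the letters, and binding was not measured. Most RefSeq windows held no ISRE core, as in GBP6, and the part of the motifs in the IFN-β differences was not tested.

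Values are FPKM as the authors deposited them, which are per transcript length, so levels of different genes can be set side by side within a library. Read counts are not given and the depth of each library is unknown. In the IFN-β experiment 10993 to 11887 named genes per library were at 1 FPKM or more, and in the knockdown experiment 11098 to 11586. The experiments were normalized separately, so levels are compared only within each. As deposited, the median gene of KYSE450 was 0.41 higher on the log2 scale after IFN-β than in untreated cells, against -0.01 in KYSE30 and -0.02 in KYSE180. Differences on the log2 scale were therefore taken after median-of-ratios scaling, as log2(scaled FPKM + 1), which understates the change of low genes, and the deposited values are given where they lead elsewhere. The labelled cell type was checked with 8 squamous markers, whose summed FPKM ran from 158 to 8201 in the IFN-β experiment. The libraries labelled KYSE30 were at the low end, with KRT5 at 1.37 FPKM after IFN-β and 2.91 FPKM untreated and the desmosomal gene PKP1 at 0.1 FPKM after IFN-β and 0.01 FPKM untreated, although TP63, the transcription factor that marks squamous cells, was at 28.4 and 26.1 FPKM. In the knockdown experiment the libraries labelled KYSE30 had KRT5 at 228 FPKM after knockdown and 117 FPKM with the vector control, but PKP1 was low there too, at 0.0916 and 0.311 FPKM. The IFN-β results are therefore given with and without KYSE30. Of 8 leukocyte markers, 7 were below 1 FPKM in all libraries of the IFN-β experiment, with MS4A1 at 0 and PTPRC at no more than 0.09 FPKM; the eighth, CD68, was above 1 FPKM in 5 of 6. Of 6 fibroblast markers 5, and of 5 endothelial markers 4, were below 1 FPKM in all of them.

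The first comparison asked how the family stood after 72 h of IFN-β. GBP1 and GBP3 were higher after IFN-β in all 3 lines, GBP4 was higher in all 3 at low levels, and GBP5 was higher in KYSE180 and KYSE450. GBP2 differed little, and GBP6, the most abundant member in KYSE180 and KYSE450, was lower in these lines after IFN-β. None of the 4 members tested passed the adjusted threshold after scaling. GBP1 and GBP3 passed it in the values as deposited, in a fit that used a spread shared across genes instead of their own.

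**Figure D1:**
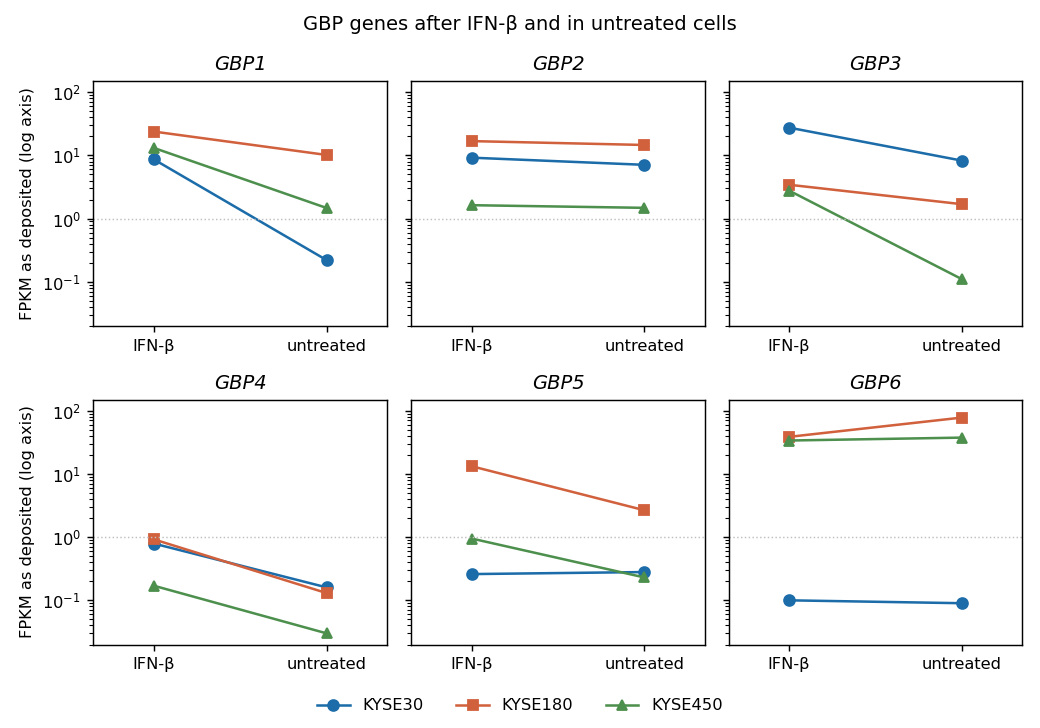
FPKM as deposited (log axis) of GBP1 to GBP6 in the IFN-β and untreated libraries; each point is 1 library and each line joins the libraries of 1 cell line, and the dotted line marks 1 FPKM. GBP1 ran from 8.63 to 23.8 FPKM after IFN-β and from 0.22 to 10.15 FPKM in untreated cells, while GBP6 stayed near 0.1 FPKM in KYSE30.

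GBP1, the member that starts the coat, was at 8.63 FPKM in KYSE30, 23.8 FPKM in KYSE180 and 13.11 FPKM in KYSE450 after IFN-β, against 0.22, 10.15 and 1.47 FPKM in the untreated cells of the same lines in the same order. Every line was higher after IFN-β, but the groups overlapped, because untreated KYSE180 exceeded IFN-β-treated KYSE30. The means were 15.2 ± 7.79 FPKM after IFN-β and 3.95 ± 5.41 FPKM in untreated cells (SD, n = 3 lines each). After scaling, GBP1 was 39.1-fold higher in KYSE30, 6.17-fold higher in KYSE450 (8.92-fold as deposited) and 2.47-fold higher in KYSE180. The KYSE30 ratio rests on an untreated value of 0.22 FPKM, below 1 FPKM and deposited with 2 decimals. As log2(scaled FPKM + 1) the differences were 3.05 in KYSE30, 2.12 in KYSE450 and 1.22 in KYSE180. In KYSE30 its percentile among named genes was 63.9 after IFN-β and 34.3 in untreated cells.

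GBP3, which joins the coat and lacks a CaaX box, was at 27.46 FPKM in KYSE30, 3.43 FPKM in KYSE180 and 2.77 FPKM in KYSE450 after IFN-β, against 8.26, 1.69 and 0.11 FPKM in untreated cells. All 3 lines were higher after IFN-β, and the groups overlapped because KYSE30 held more GBP3 untreated than the other lines did after IFN-β. The means were 11.2 ± 14.1 FPKM after IFN-β and 3.35 ± 4.32 FPKM in untreated cells (SD, n = 3 lines each). The scaled differences were 1.62 log2 units in KYSE30, 0.75 in KYSE180 and 1.58 in KYSE450.

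GBP2, a prenylated member of the coat, was at 9.2 FPKM in KYSE30, 16.82 FPKM in KYSE180 and 1.63 FPKM in KYSE450 after IFN-β, against 7.09, 14.61 and 1.48 FPKM in untreated cells. The lines kept their order, with KYSE180 highest and KYSE450 lowest in both arms, and the groups overlapped almost entirely. The scaled difference was 0.33 log2 units in KYSE30, 0.26 in KYSE180 and -0.24 in KYSE450, where the deposited values gave 0.08 instead. GBP2 averaged 9.22 ± 7.60 FPKM after IFN-β and 7.73 ± 6.59 FPKM in untreated cells (SD, n = 3 lines each).

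GBP4, a coat member without a CaaX box, stayed below 1 FPKM throughout, at 0.79, 0.92 and 0.17 FPKM in IFN-β-treated KYSE30, KYSE180 and KYSE450 and at 0.16, 0.13 and 0.03 FPKM in untreated cells. Each line was higher after IFN-β. As deposited the lowest IFN-β value lay just above the highest untreated value, and after scaling the groups overlapped, with 0.147 FPKM in IFN-β-treated KYSE450 against 0.172 FPKM in untreated KYSE30. The scaled ratios were 4.93-fold in KYSE30, 7.46-fold in KYSE180 and 3.92-fold in KYSE450, from values deposited with 2 decimals.

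GBP5, the other prenylated furin inhibitor, was at 0.26 FPKM in KYSE30, 13.23 FPKM in KYSE180 and 0.95 FPKM in KYSE450 after IFN-β, against 0.28, 2.66 and 0.23 FPKM in untreated cells. KYSE180 stood apart as the line with the most GBP5 in both arms, and KYSE30 was low in both. The scaled difference was 1.99 log2 units in KYSE180, 0.50 in KYSE450 and -0.02 in KYSE30. The means were 4.81 ± 7.30 FPKM after IFN-β and 1.06 ± 1.39 FPKM in untreated cells (SD, n = 3 lines each), and the IFN-β mean rested mostly on 1 library, KYSE180.

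GBP6 was at 0.1 FPKM in KYSE30, 38.54 FPKM in KYSE180 and 33.71 FPKM in KYSE450 after IFN-β, against 0.09, 77.78 and 37.48 FPKM in untreated cells. It was near 0.1 FPKM in KYSE30 and the most abundant member in both arms of the other lines. After scaling it was at 52.2% of the untreated level in KYSE180 and 62.3% in KYSE450, and as deposited the difference in KYSE450 was smaller, -0.15 against -0.67 log2 units. The means were 24.1 ± 20.9 FPKM after IFN-β and 38.5 ± 38.9 FPKM in untreated cells (SD, n = 3 lines each). The squamous markers KRT5, KRT14, TP63, DSG3 and PKP1 were also lower after IFN-β in both of these lines after scaling, while KRT6A, SFN and KRT17 were 0.13, 0.06 and 0.02 log2 units higher in KYSE180 and were lower in KYSE450. As deposited, TP63 and SFN were instead higher in KYSE450 after IFN-β, at 91.8 and 231 FPKM against 71.8 and 168 FPKM untreated. The other markers were lower there as deposited too. In KYSE180, SFN and KRT17 were slightly lower as deposited. KRT14 was at 627 FPKM in KYSE180 and 46.7 FPKM in KYSE450 after IFN-β, against 1258 and 78.7 FPKM in untreated cells. The summed FPKM of the 8 markers ran from 163 to 6609 after IFN-β and from 158 to 8201 in untreated cells, 0 of the 8 passed the adjusted threshold in limma (2 had an unadjusted p under 0.05), and their part in the GBP6 values was not tested. In these libraries fewer cells of a kind and less RNA per cell cannot be told apart.

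limma was fitted across all genes of the IFN-β experiment, with cell lines as blocks, and genes at 1 FPKM or more in 3 or more libraries were tested. GBP4 reached 1 FPKM in 0 libraries and GBP5 in 2, so 4 of the 6 members were tested. After scaling, 0 of these 4 passed an adjusted p of 0.05 (Benjamini-Hochberg), against 0.443% of 12429 genes tested (55 genes). GBP1 had a log2 fold change of 2.13 ± 0.35 (SE) with an adjusted p of 0.160 in limma. GBP3 had 1.32 ± 0.21 with an adjusted p of 0.0831, GBP6 -0.52 ± 0.20 with 0.508 and GBP2 0.12 ± 0.16 with 0.824. By unadjusted p, GBP3 ranked 73rd and GBP1 117th of all genes tested. Of these members 3 (GBP1, GBP3 and GBP6) had an unadjusted limma p under 0.05, against 9.5% of all genes tested. GBP1 and GBP3 were higher in every line, which 16.7% of the genes tested were.

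In the values as deposited, GBP1 and GBP3 were called, 2 of the 4 members tested against a background of 1.91% (237 genes). The log2 fold changes were then 2.22 ± 0.26 with an adjusted limma p of 2.41e-15 for GBP1 and 1.37 ± 0.25 with 1.01e-05 for GBP3. Over all alternatives the adjusted p of GBP1 ran from that value to 1, and that of GBP3 likewise from 1.01e-05 to 1. In the unscaled fit limma replaced the own spread of 10828 genes by one shared across genes, so for such a gene its p-value carries no measure of the spread between lines. The SEs of the members tested were nearly equal in that fit, at 0.258 for GBP1 and GBP2, 0.255 for GBP3 and 0.254 for GBP6. The p-values of GBP1 and GBP3 in that fit thus rest on the shared spread. Without KYSE450 neither was called in the values as deposited, with an adjusted limma p of 0.733 for GBP1 and 0.423 for GBP3. Without KYSE30, GBP1 had 1.67 ± 0.26 (adjusted limma p 0.0623), GBP3 1.16 ± 0.27 (0.252), GBP6 -0.79 ± 0.21 (0.315) and GBP2 0.01 ± 0.22 (0.996). Without KYSE180, the line with the smallest differences in GBP1 and GBP3, both passed, with 2.59 ± 0.26 (adjusted limma p 0.0382) for GBP1 and 1.60 ± 0.14 (0.0237) for GBP3. Without KYSE450 neither passed after scaling, with 2.13 ± 0.55 (adjusted limma p 0.78) for GBP1 and 1.185 ± 0.25 (0.213) for GBP3. With no filter, GBP4 had 0.51 ± 0.14 and GBP5 0.82 ± 0.41, each with an adjusted limma p of 0.773.

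**Figure D2:**
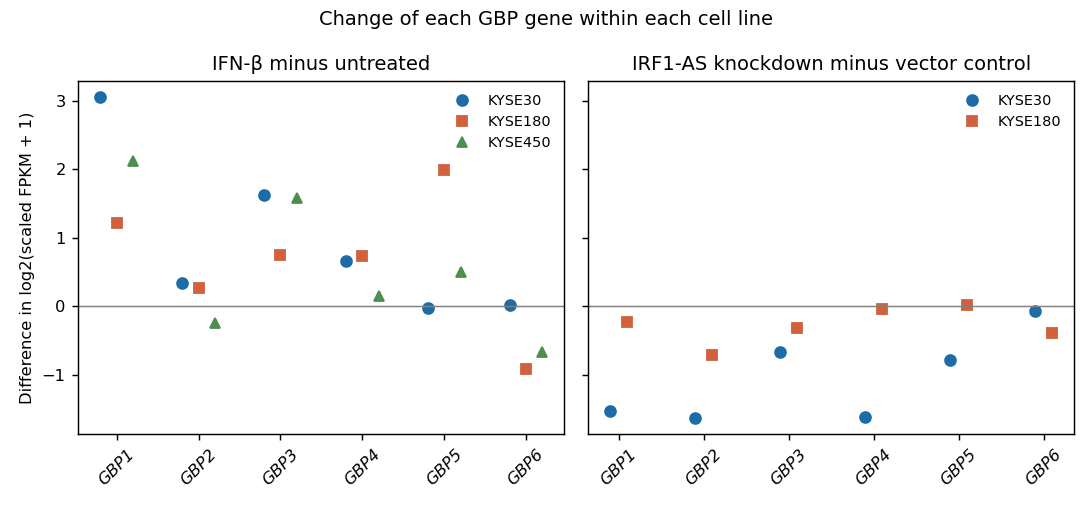
Difference in log2(scaled FPKM + 1) of each GBP gene within each cell line, IFN-β minus untreated on the left and IRF1-AS knockdown minus vector control on the right; each point is 1 pair of libraries. GBP1 lies above 0 in all 3 lines on the left, from 1.22 to 3.05, and below 0 in both lines on the right, at -1.53 and -0.23.

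The make-up of the family differed by line. GBP1 to GBP6 summed to 46.4 FPKM in IFN-β-treated KYSE30, 96.7 FPKM in KYSE180 and 52.3 FPKM in KYSE450, against 16.1, 107 and 40.8 in untreated cells. KYSE30 was 2.88-fold higher after IFN-β and KYSE180 was at 0.904-fold as deposited and 0.953-fold after scaling, while KYSE450 was at 1.28-fold as deposited but 0.888-fold after scaling. GBP6 made up 39.8% of the sum in KYSE180 and 64.4% in KYSE450 after IFN-β, against 72.7% and 91.9% in untreated cells. In KYSE30 it made up 0.215% after IFN-β and 0.559% in untreated cells, and GBP3 led there with 59.1% and 51.3%. GBP1 took 18.6% of the sum in IFN-β-treated KYSE30, 24.6% in KYSE180 and 25.1% in KYSE450, against 1.37%, 9.48% and 3.60% in untreated cells. GBP1 thus took a larger share of the family after IFN-β in each line, from totals that moved in different directions. With 1 library per line and arm, neighbouring members in these orders have no replicate error of their own.

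**Figure D3:**
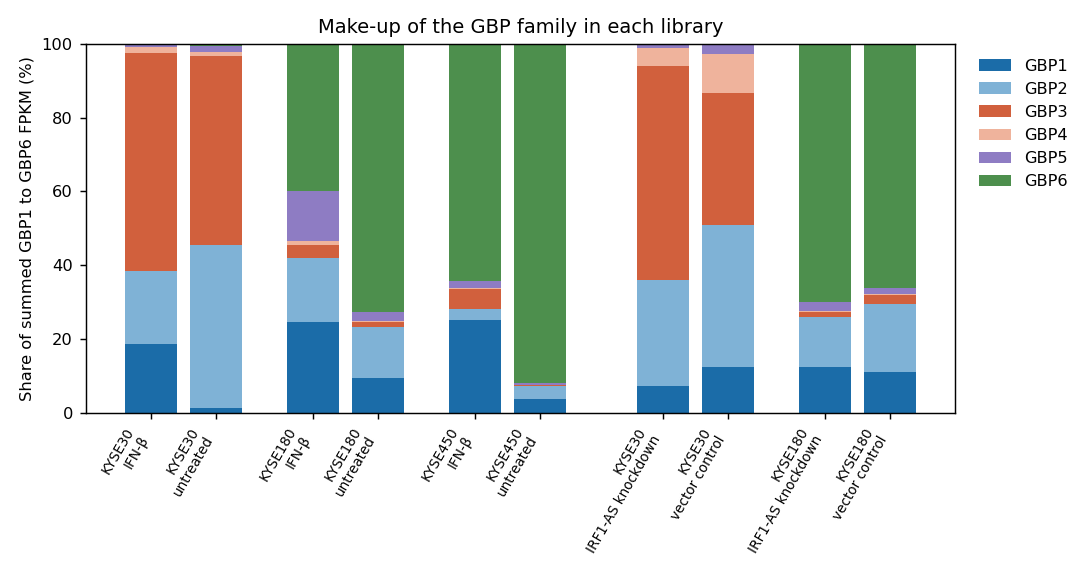
Share of the summed GBP1 to GBP6 FPKM (percent) that each member takes in each of the 10 libraries. GBP6 takes most of the sum in the untreated KYSE180 and KYSE450 libraries (72.7% and 91.9%) and under 1% in every KYSE30 library.

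The members did not move as one across the 6 libraries. Pearson's r was taken on log2(FPKM + 1) as deposited, as a description over libraries that share cell lines and treatment. It was highest for GBP1 with GBP5 (0.71) and lowest for GBP3 with GBP6 (-0.83). With Pearson's r of log2(scaled FPKM + 1) instead, the genes most like GBP1 among 11534 named genes were PRKD2 (0.976), TAP1 (0.975) and CHMP5 (0.972). TAP1, a subunit of the peptide transporter, was at 59.4, 126 and 61.1 FPKM in IFN-β-treated KYSE30, KYSE180 and KYSE450 and at 3.21, 30.2 and 5.6 FPKM in untreated cells. Those most like GBP2 were JAG1 (0.999), YIPF3 (0.999) and ANKZF1 (0.997), and those most like GBP3 were LOC100133669 (0.994), SP140L (0.991) and APOBEC3F (0.991). The genes most like GBP6 were NNT (0.999), WIPI1 (0.998) and ALDH3A1 (0.998). ALDH3A1, an aldehyde dehydrogenase, was at 7.45, 653 and 583 FPKM after IFN-β and at 5.70, 1861 and 996 FPKM in untreated cells, the same order of lines as GBP6.

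Genes that carry the interferon signal were described beside the family. Of 16 regulators 15 were tested, and limma called 2 higher and 0 lower at the adjusted threshold, against 0.443% of all genes tested. Of the 15, 7 had an unadjusted limma p under 0.05, against 9.5% of all genes tested. In every line 8 of them were higher, which 16.7% of the genes tested were. Their median log2 fold change was 0.37 against -0.01 over all genes tested. IRF1, which binds the ISRE core, rose by 1.30 ± 0.14 (adjusted limma p 0.0143), to 19.8, 10.5 and 6.01 FPKM in IFN-β-treated KYSE30, KYSE180 and KYSE450, against 7.31, 3.35 and 1.44 FPKM in untreated cells. IRF9, a DNA-binding factor of the type I interferon response, had 2.83 ± 0.35 (adjusted limma p 0.0767), SOCS1, an inhibitor of JAK signalling, 0.89 ± 0.17 (0.158), and USP18, which blocks the type I receptor, 3.38 ± 0.50 (0.188). The gene listed as C5orf56, taken by that symbol as the antisense gene of IRF1, was at 6.62, 5.47 and 3.93 FPKM after IFN-β and at 1.72, 0.97 and 0.38 FPKM in untreated cells.

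The enzymes that prenylate and trim CaaX proteins were all 6 tested, and 0 were called by limma or had an unadjusted p under 0.05, with a median of -0.07. RCE1, the CaaX protease, had the smallest p among them (0.32 ± 0.15, adjusted limma p 0.541). Of 12 partners and effectors of GBP coats, 8 were tested, 0 were called by limma and 2 had an unadjusted p under 0.05, with a median of 0.05. CASP1, which cleaves interleukin-18, was at 5.14, 35.3 and 22.6 FPKM after IFN-β against 0.56, 20.8 and 6.80 FPKM in untreated cells (1.31 ± 0.24, adjusted limma p 0.165), and RNF213, a ubiquitin ligase for lipopolysaccharide, had 1.5 ± 0.51 (0.508). CASP4, the caspase on the coat, had 0.24 ± 0.16 (0.651). APOL3, which permeabilizes coated bacteria, was not tested and stood at 2.11, 3.20 and 0.64 FPKM after IFN-β and at 0.14, 0.19 and 0.05 FPKM in untreated cells.

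Of 10 other dynamin-type or interferon-inducible GTPases, 8 were tested, 0 were called by limma and 2 had an unadjusted p under 0.05, with a median near 0. MX2 was at 26.3, 10.7 and 191 FPKM in IFN-β-treated KYSE30, KYSE180 and KYSE450 and at 0.07, 0.03 and 0.26 FPKM in untreated cells (5.05 ± 0.76, adjusted limma p 0.238). ATL3, which shapes the endoplasmic reticulum, was the other gene with an unadjusted p under 0.05, at 35.1, 21.6 and 33.3 FPKM after IFN-β and at 39.8, 31.5 and 35.6 FPKM in untreated cells (-0.41 ± 0.13, adjusted limma p 0.448). MX1 was at 320 FPKM in IFN-β-treated KYSE180 and 8.79 FPKM in untreated KYSE180, and below 5 FPKM in the other libraries (2.56 ± 0.99, adjusted limma p 0.550). KYSE180 had the widest MX1 and GBP5 differences and the narrowest GBP1, GBP3 and MX2 differences of the 3 lines. Of 10 neighbours of the cluster on chromosome 1, 9 were listed and 8 tested, 0 were called by limma or had an unadjusted p under 0.05, and their median was 0.04. GBP7 stayed at or below 0.05 FPKM in every library of the IFN-β experiment, at 0.03, 0.05 and 0.02 FPKM after IFN-β and at 0, 0.04 and 0 FPKM in untreated cells. GBP1P1 was not matched in either experiment, so it has no values here.

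The second comparison asked how the family stood after knockdown of IRF1-AS. The C5orf56 gene, whose Ensembl identifier the reference names IRF1-AS1, was at 3.04 FPKM in knockdown KYSE30 and 0.948 FPKM in knockdown KYSE180, against 6.86 and 1.08 FPKM with the vector control. The knockdown libraries thus held 44.4% of the control level in KYSE30 and 88.0% in KYSE180, so the library labelled knockdown in KYSE180 differed little from its control in this gene. The row covers the whole gene, and which of its transcripts was targeted is not given in the labels. All 4 members tested, GBP1, GBP2, GBP3 and GBP6, were lower in both knockdown lines, a direction that 26.2% of the 12813 genes tested shared. On the log2(scaled FPKM + 1) scale the differences in GBP1, GBP2 and GBP3 were wider in KYSE30 than in KYSE180, although the ratio of GBP3 was wider in KYSE180, and none passed the adjusted threshold.

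**Figure D4:**
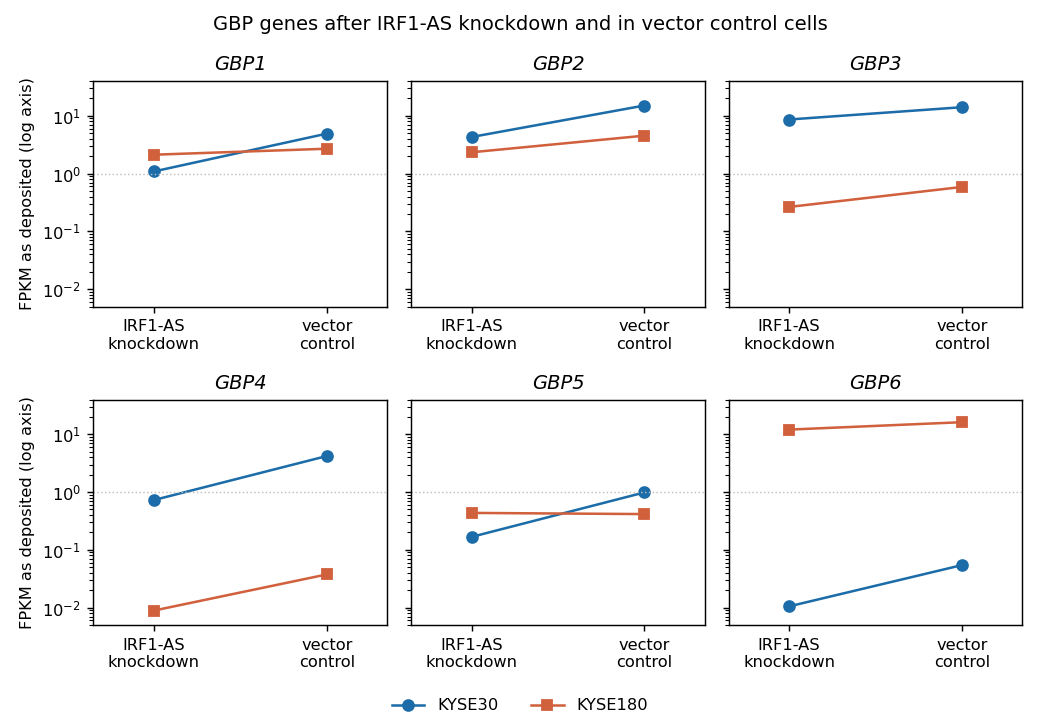
FPKM as deposited (log axis) of GBP1 to GBP6 in the IRF1-AS knockdown and vector control libraries; each point is 1 library and each line joins the libraries of 1 cell line. In KYSE30 all 6 members lie lower after knockdown, with GBP2 at 4.30 FPKM against 15.07 FPKM.

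GBP2 was at 4.30 FPKM in knockdown KYSE30 and 2.34 FPKM in knockdown KYSE180, against 15.07 and 4.53 FPKM with the vector control. Both knockdown values lay below both control values, though knockdown KYSE30 came close to control KYSE180. After scaling these libraries were at 4.37 and 4.39 FPKM, so the groups were only just apart. After scaling GBP2 was at 28.0% of the control level in KYSE30 and 51.9% in KYSE180. GBP1 was at 1.09 and 2.12 FPKM in knockdown KYSE30 and KYSE180, against 4.91 and 2.69 FPKM with the vector control. Here too no knockdown value reached a control value, and the difference was -1.53 log2 units in KYSE30 and -0.23 in KYSE180. GBP1 and GBP2 were thus 2 of the 4 members tested whose knockdown libraries were all below the controls, against 8.22% of all genes tested.

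GBP3 was at 8.63 and 0.265 FPKM in knockdown KYSE30 and KYSE180, against 14.09 and 0.587 FPKM with the vector control. The lines were further apart than the arms, so the groups overlapped. After scaling GBP3 was at 60.1% of the control level in KYSE30 and 45.4% in KYSE180, where both values were below 1 FPKM. GBP6 was at 0.0105 and 12.07 FPKM in knockdown KYSE30 and KYSE180, against 0.0544 and 16.21 FPKM with the vector control, and was again near 0 in KYSE30. GBP4 was at 0.728 FPKM in knockdown KYSE30 and 4.21 FPKM in its control, 17.0% of the control level after scaling, and at 0.00889 and 0.0375 FPKM in knockdown and control KYSE180. Untreated KYSE30 of the IFN-β experiment had listed GBP4 at 0.16 FPKM, in tables normalized apart. GBP5 was at 0.168 and 0.436 FPKM in knockdown KYSE30 and KYSE180, against 0.986 and 0.416 FPKM with the vector control, lower in KYSE30 and level in KYSE180.

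In the limma fit of this experiment genes at 1 FPKM or more in 2 or more of the 4 libraries were tested, which GBP4 (1 library) and GBP5 (0 libraries) did not. The number of genes called was 0 of 12813 (0%), members included, and the smallest adjusted p of any gene was 0.153, while 846 genes (6.6%) had an unadjusted p under 0.05. GBP2 was the member with an unadjusted limma p under that value, at -1.17 ± 0.30 (SE; adjusted p 0.740). GBP1 had -0.88 ± 0.37 (adjusted limma p 0.789), GBP3 -0.50 ± 0.25 (0.800) and GBP6 -0.23 ± 0.25 (0.887). With no filter GBP4 had -0.83 ± 0.47 and GBP5 -0.38 ± 0.27, each with an adjusted limma p of 0.873. With 2 lines and 1 library per arm, the depth of a pair also enters. As a rough estimate, the control library was 1.13 times as deep as the knockdown library in KYSE30 and 1.18 times in KYSE180. The estimate rests on the most frequent ratio of low values, held by 29 of 447 low genes in KYSE30 and 15 of 431 in KYSE180. The part of this difference in depth in the values of the low members was not tested. Of the 8 squamous markers 4 were lower in both lines and 1 was higher in both, the median log2 fold change was -0.34, and their summed FPKM ran from 916 to 8130 after knockdown and from 843 to 9634 with the vector control. KRT14 was at 13.6 FPKM in knockdown KYSE30 and 1683 FPKM in knockdown KYSE180, against 29.7 and 3616 FPKM with the vector control (-1.10 ± 0.18, adjusted limma p 0.633). DSG3, a desmosomal cadherin, had -0.73 ± 0.20 (adjusted limma p 0.756) and TP63 -0.55 ± 0.19 (0.757). Of the 8, 0 were called by limma and 3 had an unadjusted p under 0.05, and their part in the values of the GBP genes was not tested.

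The summed FPKM of the 6 members was 14.9 in knockdown KYSE30 and 17.2 in knockdown KYSE180, against 39.3 and 24.5 with the vector control, or 0.380-fold and 0.704-fold. GBP3 made up 57.9% of the sum in knockdown KYSE30 and 35.8% in its control, and GBP2 28.8% and 38.3%. In KYSE180, GBP6 made up 70.0% after knockdown and 66.2% in the control.

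Of the 15 regulators tested in this experiment 0 were called by limma and 3 had an unadjusted p under 0.05, with a median of -0.13 against 0.00 over all genes tested. IRF1 was at 5.88 FPKM in knockdown KYSE30 and 1.20 FPKM in knockdown KYSE180, against 31.1 and 1.83 FPKM with the vector control (-1.30 ± 0.47, adjusted limma p 0.757). The KYSE30 pair was the one with the wider difference, as for GBP1 and GBP2. IRF9 was at 3.0 and 6.83 FPKM after knockdown against 4.33 and 25.5 FPKM, wider in KYSE180 (-1.09 ± 0.36, adjusted limma p 0.757). None of the 6 prenylation enzymes, the 8 coat partners, the 6 other GTPases or the 8 neighbours that were tested was called by limma. Their medians were 0.14, -0.22, 0.03 and -0.06, and 1, 2, 0 and 0 of them had an unadjusted p under 0.05. Among the partners, CASP1 was at 0.306 and 2.95 FPKM in knockdown KYSE30 and KYSE180 against 1.41 and 6.61 FPKM with the vector control (-0.92 ± 0.24, adjusted limma p 0.745). PIM1, a kinase that keeps GBP1 inactive through phosphorylation, was at 24.9 and 19.0 FPKM against 54.0 and 25.4 FPKM (-0.75 ± 0.25, adjusted limma p 0.757).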

How the data were processed

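RNA of 10 libraries was measured as FPKM, 1 table per library. Per the submitters' processing notes, TopHat, HTSeq and the hg38 build were used, with no versions or roles. In the sources used here, annotation and strand setting are not given. The FPKM values were used as the authors deposited them, per the file headers. Transcripts of the long non-coding part were added up by gene, and copies on alternate haplotypes were added to the primary gene. limma 3.58.1 (trend and robust options, statmod 1.5.0, R 4.3.3) was fitted on log2(scaled FPKM + 1) across all genes, with the cell line as a block. Scaling was by median-of-ratios factors from named genes. Benjamini-Hochberg adjustment ran over all genes tested, with calls at 0.05. Libraries with the same replicate number come from 1 cell line. Their deviations from the group means correlated at 0.910 (KYSE30), 0.841 (KYSE180) and 0.876 (KYSE450) for IFN-β, and at 0.842 for the knockdown. Whole reads could not be recovered, and count tests were not run. The fit was tested on simulated data. Figures used matplotlib 3.10.9.

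The members and gene lists were chosen with earlier results of these data known. Named genes are the 6 members in every library, up to 5 genes per pathway list, taken by smallest p in either experiment, and the 3 genes most like each tested member. CASP4, APOL3, GBP7 and the cell type markers were named after their values were seen. A gene that the rule names is counted in its list but not reported here. Alternatives covered scaling, block, pseudocount, filter, robust option and leaving out each line; 2 were added after seeing the data.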

Additional observations from a re-analysis of the deposited data

Results flagged for a closer look

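For 4 results the lines differed in sign under the same contrast, which was not tested because each line has 1 library per arm; in 3 of them 1 line was close to 0, as the values show. GBP5 was 1.99 log2 units higher after IFN-β in KYSE180 and 0.02 lower (-0.02) in KYSE30, a gap of 2.01. GBP6 was at 0.01 in KYSE30 and -0.92 in KYSE180 after IFN-β, a gap of 0.932, with levels near 0.1 FPKM in KYSE30. GBP2 was at 0.33 in KYSE30 and -0.24 in KYSE450 after IFN-β, a gap of 0.576, and in the values as deposited KYSE450 was at 0.08. GBP5 was at 0.02 in KYSE180 and -0.79 in KYSE30 after knockdown, a gap of 0.812.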

How the results depend on the processing

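After scaling, 55 genes of the IFN-β experiment were called. The number was 237 in the values as deposited, 13 with no replicate block, 15 with no filter and 35 in the values as deposited without KYSE450, the last chosen after seeing the data. Leaving out 1 line in turn gave 62 to 75. The other alternatives gave 48 to 77 genes. In the knockdown experiment each alternative that could be tested gave 0 genes, among them the fit with no replicate block; leaving out a line left 1 library per arm and gave values with no test. Of the members' results under the alternatives, 63 kept their direction and their side of the threshold, 5 passed it and 0 changed sign, and the other 8, from knockdown without a line, kept their direction and have no test. The 5 were GBP1 and GBP3 in the values as deposited and without KYSE180, and GBP3 with named genes alone (adjusted limma p 0.0294; chosen after seeing the data). In the values as deposited the p-values of GBP1 and GBP3 rest on a spread shared across genes. Without KYSE450 the values as deposited gave an adjusted limma p of 0.733 for GBP1 and 0.423 for GBP3. The block changed no call of a member. With 1 library per line and arm and no read counts, the precision of a single library is unknown.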
